A study of Mus musculus with 14 samples.

Results

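The MEF2 family of transcription factors comprises 4 genes in the mouse, Mef2a, Mef2b, Mef2c and Mef2d, which were chosen by name. These are 4 of the 24016 transcripts in the table, and 3 of them had a mean FPKM of at least 1 over the 8 libraries and entered the tests, as did 14312 transcripts in all. MEF2 proteins share an N-terminal MADS box and MEF2 domain, through which they pair and bind an A/T-rich DNA element. In skeletal muscle they act together with the myogenic bHLH factors MyoD and myogenin to activate contractile and metabolic genes. Class IIa histone deacetylases bind and silence them, whereas calcium/calmodulin-dependent kinases, protein kinase D, p38 kinases and calcineurin relieve that repression or raise their activity.

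RNA was measured in C2C12 cells, established mouse myoblasts that form myotubes by fusion when serum is low. The cells were transfected with control siRNA (siCtrl) or a pool of siRNAs against Klf5 (siKlf5) in growth medium, and were then moved to differentiation medium with horse serum and collected on days 0, 1, 2 and 3. There was 1 library per siRNA and day, so that a single day has no replicate error. ChIP-seq samples of the same study were not analysed here. Recovered depth was 12178833, 7850497, 20301506 and 12366627 reads in siCtrl cells on days 0 to 3, and 11136799, 8119452, 11808641 and 10864084 reads in siKlf5 cells. Levels are given as FPKM, that is, per transcript length, as deposited. The authors scaled each library to a total of 10000000, which makes these values larger than ordinary FPKM.

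The labelled cell type was first checked against its markers. Of 7 myoblast and myotube markers, all were expressed. Myod1, which commits cells to the muscle lineage, lay between 398 and 557 FPKM in the 8 libraries, and Cdh15, the muscle cadherin, between 855 and 1360 FPKM. Myh3, embryonic myosin heavy chain, rose from 103 to 2790 FPKM in siCtrl cells between days 0 and 3 and from 96.4 to 2685 FPKM in siKlf5 cells (log2 change over both siRNAs 4.78, SE 0.12, limma adjusted p = 5.78e-07). Markers of other cells were mostly near 0. The adipocyte gene Plin1 and the osteoblast gene Ibsp were listed at 0 in every library, and 4 endothelial and blood cell markers did not exceed 3.39 FPKM. Pparg, a regulator of adipocyte formation, and Runx2, a regulator of osteoblast formation, were exceptions, at 33.6 to 156 FPKM and 50.1 to 77.7 FPKM. The osteoblast gene Bglap reached 10.3 FPKM in siCtrl cells on day 3, on only 10 reads (95% interval 0.91 to 41.4 FPKM, counting error only). Bglap was listed at 0 in 6 libraries. Pparg fell between days 0 and 3 (log2 change -1.94, limma adjusted p = 0.000737), and Runx2 did not pass (-0.43, adjusted p = 0.173). The log2 ratios of siKlf5 to siCtrl for Pparg were -0.23, -0.90, -0.22 and -0.32 on days 0 to 3. Its mean difference of -0.42 did not pass (limma adjusted p = 0.477). Klf5, the target of the siRNA, was 224, 381, 614 and 933 FPKM in siCtrl cells on days 0 to 3 and 35.1, 159.6, 192 and 211 FPKM in siKlf5 cells. The siKlf5 library was the lower one on each of the 4 days, and the mean log2 difference was -1.94 (SE 0.20, limma adjusted p = 0.0244).

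The members sit on 4 chromosomes of mm9, and GENCODE annotates all 4 as protein-coding genes. The transcript counted for Mef2a (NM_001291195) runs from 74376049 to 74517744 on the minus strand of chromosome 7 and has 5501 exonic bases. That of Mef2c (NM_001170537) runs from 83643033 to 83806684 on the plus strand of chromosome 13 and has 6414 exonic bases. That of Mef2d (NM_133665) runs from 87946317 to 87973089 on the plus strand of chromosome 3 and has 2446 exonic bases. It ends 2919 bases before the gene does in GENCODE, which may affect its level per length. That of Mef2b (NM_001045484) runs from 72676677 to 72691387 on the plus strand of chromosome 8 and has 1301 exonic bases.

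The sequences at the gene starts of Mef2a and Mef2c are shown because Mef2a was the only member whose start held a MEF2 site, and because Mef2c, the member with the widest range of expression, has several starts. RefSeq gives 1 start for Mef2a and 3 for Mef2c. Each window covers 250 bases before to 50 bases after a start on GRCm38.p6, a later build than that of the expression table. Capitals mark MEF2 sites and E-boxes (CANNTG, the element bound by myogenic bHLH factors), searched on both strands.
Mef2a window 1 (chr7:67372809-67373108, minus strand): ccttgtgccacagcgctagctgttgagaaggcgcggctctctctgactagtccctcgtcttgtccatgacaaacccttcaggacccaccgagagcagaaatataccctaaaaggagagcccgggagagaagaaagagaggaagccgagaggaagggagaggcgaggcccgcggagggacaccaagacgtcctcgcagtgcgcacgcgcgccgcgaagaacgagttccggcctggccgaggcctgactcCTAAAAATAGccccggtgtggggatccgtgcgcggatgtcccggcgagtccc
Mef2c window 1 (chr13:83503784-83504083, plus strand): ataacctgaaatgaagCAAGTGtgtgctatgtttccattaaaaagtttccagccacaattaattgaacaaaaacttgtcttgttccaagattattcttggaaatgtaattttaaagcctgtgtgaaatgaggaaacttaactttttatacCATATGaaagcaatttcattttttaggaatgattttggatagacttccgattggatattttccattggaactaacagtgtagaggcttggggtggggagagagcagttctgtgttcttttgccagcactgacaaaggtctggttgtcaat
Mef2c window 2 (chr13:83523406-83523705, plus strand): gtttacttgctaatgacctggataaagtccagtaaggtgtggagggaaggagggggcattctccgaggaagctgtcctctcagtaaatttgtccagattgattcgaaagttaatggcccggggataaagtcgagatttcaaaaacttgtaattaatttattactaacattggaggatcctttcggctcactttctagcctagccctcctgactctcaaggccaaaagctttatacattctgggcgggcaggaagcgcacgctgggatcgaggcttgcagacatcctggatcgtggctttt
Mef2c window 3 (chr13:83573357-83573656, plus strand): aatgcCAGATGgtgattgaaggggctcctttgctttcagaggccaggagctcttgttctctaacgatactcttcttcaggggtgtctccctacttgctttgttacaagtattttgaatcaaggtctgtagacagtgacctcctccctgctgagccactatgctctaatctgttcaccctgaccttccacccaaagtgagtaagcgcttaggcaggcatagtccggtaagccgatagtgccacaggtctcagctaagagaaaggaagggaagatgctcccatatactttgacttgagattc
A match is a description of the letters and not a measured binding site. Of all 32851 windows of this length, 3.19% held a MEF2 site, 72.3% an E-box and 57.5% a CACCC box, the kind of element that Krüppel-like factors bind. The Mef2a window held 1 MEF2 site, which begins 2 bases before the start, and neither an E-box nor a CACCC box. The 3 Mef2c windows held 2, 0 and 1 E-boxes and 1, 0 and 3 CACCC boxes, in the order shown, and no MEF2 site. The Mef2d window held 2 CACCC boxes and neither of the other motifs, and the Mef2b window 2 E-boxes and 1 CACCC box. Counts summed over exons do not tell which of the Mef2c starts was used.

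Expression of the members differed most in its range. Over days 0 to 3, Mef2c FPKM in siCtrl cells was 18.7, 55.2, 163 and 315. In siKlf5 cells it was 20.1, 53.2, 116 and 218 FPKM on the same days. Every step between neighbouring days was upward in both courses, and the siKlf5 library was the lower one on days 1, 2 and 3. Mef2c reads numbered 236, 454, 3509 and 4144 in siCtrl cells and 230, 455, 1445 and 2501 in siKlf5 cells. Among the expressed transcripts Mef2c moved from the 27.1th to the 86.7th percentile of level in siCtrl cells and from the 27.9th to the 79.8th in siKlf5 cells.

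Mef2a was already abundant in myoblasts. Its FPKM over days 0 to 3 was 201, 321, 383 and 368 in siCtrl cells, and 178, 338, 333 and 336 in siKlf5 cells. Most of the difference from day 0 was present by day 1 in both courses, and values on days 1 to 3 lay between 321 and 383 FPKM. Mef2d was the most abundant member in every library. Its FPKM was 329, 385, 507 and 598 in siCtrl cells on days 0 to 3 and 308, 350.4, 503 and 446 in siKlf5 cells. Both courses were higher on days 2 and 3 than on day 0, and only the siKlf5 course was lower on day 3 than on day 2. Mef2b was listed at 0 in all 8 libraries. Because reads came in blocks of about 6, a count of 0 allows 3 such blocks, or 18 reads, which on Mef2b would be 4.12 (siCtrl, day 2) to 10.8 FPKM (siCtrl, day 1), counting error only. In the GENCODE annotation Mef2b exons overlap those of 2310045N01Rik on the same strand over 1342 bases. The transcript counted for that neighbour ends at 72671159, before the counted Mef2b transcript begins, and had 94.5 to 124 FPKM.

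**Figure D1:**
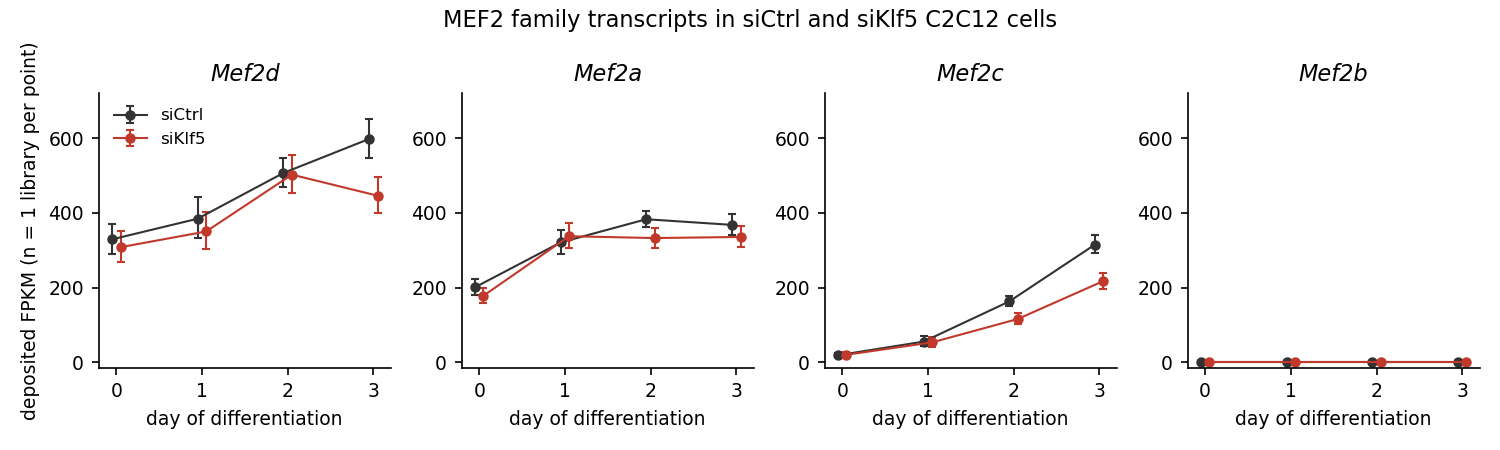
FPKM of Mef2a, Mef2b, Mef2c and Mef2d (y axis, linear, from 0) against day of differentiation (x axis) in siCtrl and siKlf5 cells. Each point is 1 library, and bars are 95% exact Poisson intervals on reads divided by 6 (counting error only). Mef2c climbs from 18.7 to 315 FPKM in siCtrl and from 20.1 to 218 FPKM in siKlf5 cells, and Mef2b stays at 0.

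To ask whether the members changed over differentiation, days 1, 2 and 3 were compared with day 0 by limma over both siRNAs, the 2 courses being the only repeats of each day. Mef2c rose on every day, by a log2 change of 1.48 (SE 0.21, adjusted p = 0.00322) on day 1, 2.82 (adjusted p = 8.83e-05) on day 2 and 3.75 (SE 0.21, adjusted p = 1.56e-05) on day 3. The change was upward in both courses on each day. Mef2a rose by 0.80 (SE 0.11, adjusted p = 0.00321) on day 1, 0.92 (adjusted p = 0.00117) on day 2 and 0.89 (adjusted p = 0.000872) on day 3. Mef2d did not pass on day 1, with a log2 change of 0.20 (SE 0.12, adjusted p = 0.302), and rose by 0.66 (adjusted p = 0.00705) on day 2 and 0.70 (adjusted p = 0.00409) on day 3. Thus 2, 3 and 3 of the 3 members tested were called higher on days 1, 2 and 3, where 6.82%, 11.5% and 12.8% of all expressed transcripts were. The 3 comparisons share their day 0 libraries. On day 3, 533 transcripts rose more than Mef2c. The calls of Mef2c on day 1 and of Mef2d on days 2 and 3 were lost when transcripts of low level were kept in the fit (limma adjusted p = 0.0663, 0.0802 and 0.0562), and those of Mef2a on day 1 and Mef2d on day 2 without the mean-variance trend (adjusted p = 0.0533 and 0.0690). The residual of these fits is how the siRNA difference varies between days, so that p-values measure the spread between these libraries, which the labels do not say came from separate cultures.

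Called transcripts on day 3 were split into 1831 higher and 2516 lower, and this split was 2173 and 1828 with median-ratio scaling and 2098 and 1931 with upper-quartile scaling. On day 1 it was 976 and 1421, against 1195 and 976 and 1266 and 897 respectively. The median over all transcripts on day 3 was -0.09 as deposited and 0.01 with median-ratio scaling. All called changes of the members were larger than that shift, and Mef2a, Mef2c and Mef2d were higher on day 3 under both scalings.

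Steps within each course show when each member moved. These are ratios of 2 libraries with intervals for counting error only. In siCtrl cells Mef2c was 2.95-fold higher on day 1 than on day 0, 2.95-fold higher on day 2 than on day 1 and 1.94-fold higher on day 3 than on day 2. Over all 3 days this was 16.9-fold (log2 4.07, 95% interval 3.61 to 4.58) in siCtrl and 10.9-fold (log2 3.43, 2.96 to 3.96) in siKlf5 cells. The day 1 to day 2 step was the one that differed most between the courses, with a log2 value of 1.56 in siCtrl and 1.12 in siKlf5 cells. For Mef2a the whole course gave 1.83-fold in siCtrl (log2 0.87, 0.69 to 1.06) and 1.88-fold in siKlf5 cells (log2 0.91, 0.71 to 1.12). For Mef2d it gave 1.82-fold (log2 0.86, 0.64 to 1.08) and 1.45-fold (log2 0.53, 0.28 to 0.79). The last Mef2d step was 0.24 on the log2 scale (0.07 to 0.41) in siCtrl and -0.17 (-0.39 to 0.04) in siKlf5 cells.

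Klf5 knockdown was then compared with control on each day. Ratios are log2((siKlf5 + 0.1)/(siCtrl + 0.1)), and intervals cover counting error only. For Mef2c the log2 ratios on days 0 to 3 were 0.10 (95% interval -0.58 to 0.78), -0.05 (-0.53 to 0.43), -0.49 (-0.71 to -0.27) and -0.53 (-0.71 to -0.36). The siKlf5 library thus had 71.2% of the siCtrl level on day 2 and 69.1% on day 3, and both intervals exclude 0. Among expressed transcripts, 15.5% had a lower ratio than Mef2c on day 2 and 13.6% on day 3. Mef2d had log2 ratios of -0.09 (-0.36 to 0.17), -0.13 (-0.43 to 0.16), -0.01 (-0.19 to 0.17) and -0.42 (-0.63 to -0.22) on days 0 to 3. Its interval excluded 0 on day 3 only, when siKlf5 cells had 74.6% of the siCtrl level and 16.7% of the expressed transcripts had a lower ratio. Mef2a had log2 ratios of -0.17 (-0.40 to 0.05), 0.07 (-0.13 to 0.28), -0.20 (-0.35 to -0.06) and -0.13 (-0.30 to 0.03). Its lowest ratio was on day 2. None of the 3 members passed 1.5-fold on any day, whereas 20.4%, 27.4%, 20.7% and 23.3% of the expressed transcripts did so on days 0, 1, 2 and 3. In bulk RNA, fewer cells of a type and less RNA per cell cannot be told apart.

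**Figure D2:**
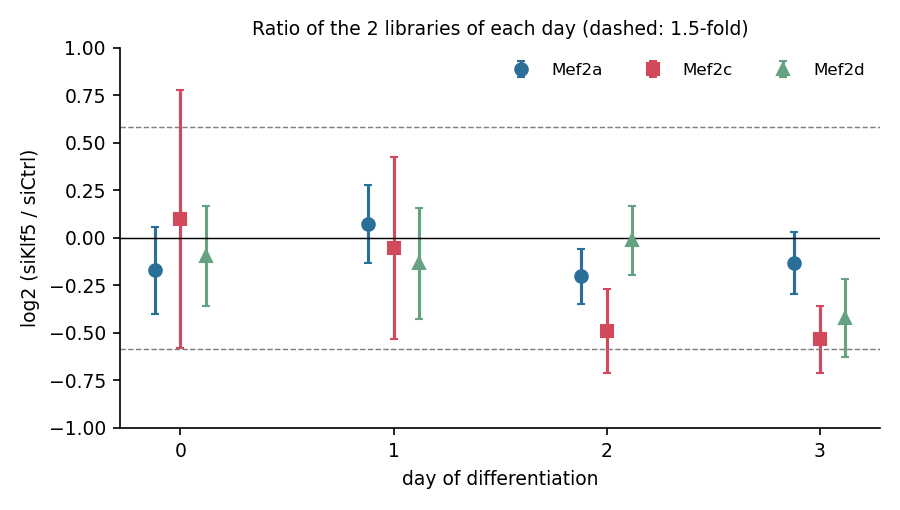
The log2 ratio of siKlf5 to siCtrl (y axis) for Mef2a, Mef2c and Mef2d against day of differentiation (x axis). Each point compares 1 library with 1 library, and bars are 95% exact intervals for counting error only. Mef2c lies at -0.49 on day 2 and -0.53 on day 3, and Mef2d at -0.42 on day 3.

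Taking the 4 days as pairs, no member passed the test. The limma difference between siKlf5 and siCtrl was -0.24 for Mef2c (SE 0.147, 95% interval -0.58 to 0.09, adjusted p = 0.632), -0.17 for Mef2d (SE 0.086, -0.37 to 0.03, adjusted p = 0.582) and -0.11 for Mef2a (SE 0.079, -0.29 to 0.07, adjusted p = 0.687). Among all expressed transcripts 9 were called, or 0.0629%, of which 8 were lower and Myh4 alone was higher, and 1374 had an unadjusted limma p under 0.05. These 9 transcripts included Klf5 and none of the members, and Myh4 was named after its values were seen. Klf5 lost its own call when any single day was left out (limma adjusted p between 0.296 and 0.693), although its log2 difference stayed between -2.16 and -1.69. It also lost the call without the trend (adjusted p = 0.646), with no filter (0.561), without the day block (1.00) and with a pseudocount of 0.01 (0.0538). An exact sign-flip permutation test over the 4 days, two-sided, gave p = 0.13 for Mef2d, which was lower on 4 of 4 days as deposited, p = 0.375 for Mef2c (3 of 4) and p = 0.25 for Mef2a (3 of 4). The p of Mef2d is the smallest that 4 pairs allow, and it rests on a day 2 ratio of -0.01 that became 0.03 with median-ratio and 0.05 with upper-quartile scaling. With day 3 left out the limma difference was -0.15 for Mef2c and -0.08 for Mef2d, with day 2 left out it was -0.16 for Mef2c, with day 0 left out -0.36 for Mef2c, and with day 1 left out -0.17 for Mef2a.

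Whether the courses diverged was asked with a siRNA by day term, linear in day. The slope difference per day was -0.23 for Mef2c (95% interval -0.56 to 0.10), -0.09 for Mef2d (-0.32 to 0.14) and -0.02 for Mef2a (-0.39 to 0.35). Limma called 0 of 14312 transcripts for this term (316 at an unadjusted p under 0.05). In this fit any curvature that both courses share enters the residual. With day as a shared factor (2 residual degrees of freedom), a fit chosen after seeing the data, the slope differences were the same and the intervals narrower, at -0.49 to 0.03 for Mef2c, -0.27 to 0.09 for Mef2d and -0.20 to 0.16 for Mef2a, and limma again called 0 transcripts (694 at an unadjusted p under 0.05).

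Proliferation markers moved beside these results. All 6 fell between days 0 and 3 (median log2 change -1.65, against -0.09 for all transcripts, with 17.6% of transcripts called lower). On day 3 all 6 were at a higher level in siKlf5 than in siCtrl cells, by a log2 ratio of 0.10 to 1.03, and their summed level was 1237 FPKM in siCtrl and 1479.9 FPKM in siKlf5 cells. Only Mki67 passed 1.5-fold higher, as did 10.7% of all expressed transcripts, and none of the 6 was at 0. On day 2, however, Mki67 (log2 ratio -0.49, 95% interval -0.74 to -0.26) and Top2a (-0.12) were at a lower level in siKlf5 cells. The summed levels on days 0, 1 and 2 were 3452, 1581 and 1743 FPKM in siCtrl and 3732, 1929 and 1939 FPKM in siKlf5 cells. Pcna, the sliding clamp of DNA replication, was the most abundant of them, at 586 and 648 FPKM on day 3. The part of these markers in the Mef2c and Mef2d values was not tested.

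The makeup of the family shifted with differentiation. Of the summed Mef2 FPKM in siCtrl cells, Mef2c contributed 3.41%, 7.26%, 15.5% and 24.6% on days 0 to 3, Mef2a 36.6%, 42.2%, 36.4% and 28.7%, and Mef2d the remaining 60.0%, 50.5%, 48.1% and 46.7%. In siKlf5 cells Mef2c contributed 3.96%, 7.18%, 12.2% and 21.8%, Mef2a 35.2%, 45.6%, 35.0% and 33.6%, and Mef2d 60.9%, 47.3%, 52.8% and 44.6%. The share of Mef2c was higher on each day than on the day before in both courses, and the Mef2d share was highest on day 0 in both. Summed over the members, the level was 549, 761, 1053 and 1281 FPKM in siCtrl and 506, 741, 951 and 999.5 FPKM in siKlf5 cells, that is, lower in siKlf5 cells on each of the 4 days.

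**Figure D3:**
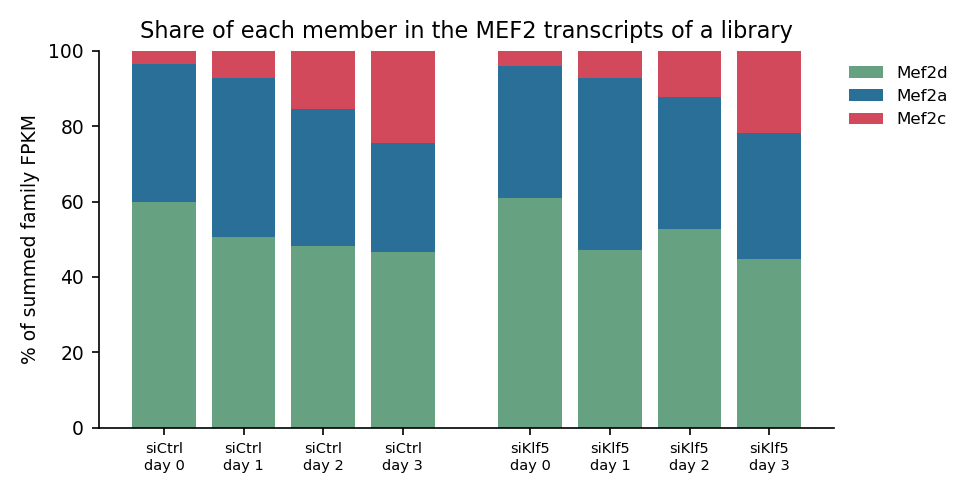
Share of each member in the summed Mef2 FPKM (y axis, percent, from 0) for each day in siCtrl and siKlf5 cells (x axis), 1 library per bar. The Mef2c share grows from 3.41% to 24.6% in siCtrl and from 3.96% to 21.8% in siKlf5 cells.

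Per length, the order of the levels was Mef2d, Mef2a, Mef2c and Mef2b in all 8 libraries. Mef2a exceeded Mef2c 10.7-fold on day 0 and 1.17-fold on day 3 in siCtrl cells, where the log2 ratio of Mef2c to Mef2a was -0.22 (95% interval -0.38 to -0.07). In siKlf5 cells the same fold was 8.89 on day 0 and 1.54 on day 3. Mef2d exceeded Mef2a by 1.2- to 1.64-fold in siCtrl and by 1.04- to 1.73-fold in siKlf5 cells. These neighbours could not be told apart in 1 library, siKlf5 on day 1, where the 95% interval of their log2 ratio ran from -0.30 to 0.20.

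Transcripts with the pattern most like each member were named by Pearson's r of log2(FPKM + 0.1) over the 8 libraries, among 11590 candidates with a mean of at least 10 FPKM. The points share libraries and depth, and r is a description only. Closest to Mef2c were Myh1 (r = 0.996), Capn3 (0.995), Adssl1 (0.995), Myh2 (0.992) and Vamp5 (0.992). Myh1 and Myh2 encode adult fast myosin heavy chains and Capn3 a muscle calpain, and 221 candidates had r above 0.95. Myh1 FPKM ran from 44.6 to 1489 in siCtrl and from 45.8 to 1071 in siKlf5 cells over the 4 days. Closest to Mef2a were Fam13c (0.993), Gprc5c (0.991), Smad3 (0.990), Zfp385c (0.989) and Pi16 (0.988), with 240 candidates above 0.95. Smad3, a transducer of TGF-β signals, had 94.0, 139, 184 and 161 FPKM in siCtrl and 79.7, 148, 159 and 157 FPKM in siKlf5 cells. Closest to Mef2d were Tsnax (0.996), Gab2 (0.982), Gys1 (0.981), Inppl1 (0.977) and Sccpdh (0.977), with 53 candidates above 0.95. Gys1 encodes muscle glycogen synthase, and its FPKM was 190.2, 243, 334 and 365 in siCtrl and 165, 222, 304 and 281 in siKlf5 cells. Between members r was 0.863 for Mef2a and Mef2c, 0.790 for Mef2a and Mef2d, and 0.931 for Mef2c and Mef2d.

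The genes that act with the MEF2 proteins were then read from 6 lists of 62 genes, of which 60 were expressed. Over the days, limma called none of these 60 between siKlf5 and siCtrl (lowest adjusted p = 0.115, 14 at an unadjusted p under 0.05, where 9.60% of all expressed transcripts were). For single days, the shares of all expressed transcripts past 1.5-fold on day 3 were 10.7% higher and 12.5% lower, and all transcripts had a median log2 ratio of 0.00. Of all expressed transcripts 12.8% were called higher and 17.6% lower on day 3 against day 0.

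The 7 myogenic bHLH partners include the lineage factors and their E-protein partners. Against day 0, Myog (log2 change 2.17) and Tcf4 (0.78) rose on day 3, Tcf3 fell by 0.63, and the other 4 did not pass, with a list median of 0.28. Myog, encoding myogenin, was 479, 1896, 2061 and 2293 FPKM in siCtrl and 328, 1517, 1739.6 and 1386 FPKM in siKlf5 cells. It was thus at a lower level in siKlf5 cells on 4 of 4 days, with log2 ratios of -0.55, -0.32, -0.24 and -0.73. Past 1.5-fold on day 3 were Myog and Myf6, both lower, and Myf6 had only 64 and 10 reads. The list median of the log2 ratio on day 3 was 0.04. On days 0, 1 and 2 the log2 ratios of Myf6 were -1.07, -0.21 and 1.24, so that it was past 1.5-fold higher on day 2. These rest on 9 to 29 reads per library, and their counting intervals include 0.

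Among 5 repressors of MEF2, Hdac4 (log2 change 0.74) and Hdac9 (2.19) rose between days 0 and 3, Hdac7 fell by 0.82, and Hdac5 and Cabin1 did not pass, with a median of 0.42. Hdac9 FPKM was 8.98, 15.9, 29.5 and 34.5 in siCtrl and 6.71, 29.4, 42.9 and 37.1 in siKlf5 cells, so that both courses were higher on day 3 than on day 0. None of the 5 passed 1.5-fold between the siRNAs on day 3 (median log2 ratio 0.00). On day 1 all 5 were at a higher level in the siKlf5 library (median log2 ratio 0.42, against 0.03 for all transcripts), and Hdac7 (0.84) and Hdac9 (0.88) were past 1.5-fold, as were 16.4% of all expressed transcripts in that direction. Of 8 coactivators, which acetylate or methylate histones or bridge to the transcription machinery, Kat2b rose by 0.47 on the log2 scale, whereas Carm1 and Maml1 fell by 0.35 and 0.67, with a median of -0.05. Between the siRNAs on day 3 only Ppargc1a passed 1.5-fold (log2 ratio -0.59, 95% interval -1.76 to 0.49, 9.46 against 6.23 FPKM), and the median was 0.04. On day 2, 5 of the 8 coactivators were at a lower level in siKlf5 cells (median log2 ratio -0.23, against -0.03 for all transcripts). Ncoa3 (-0.80, 95% interval -1.21 to -0.41) was past 1.5-fold, where 20.7% of all expressed transcripts were in either direction. The intervals of Ep300 (-0.57) and Crebbp (-0.58) also excluded 0.

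Of 18 kinases, phosphatase subunits and modulators that signal to MEF2, 17 were expressed. Camk2a (log2 change 4.42), Camk2d (0.58), Camk2g (0.30), Mapk12 (0.70) and Ppp3ca (0.39) rose between days 0 and 3, Map2k6 and Mapk11 fell by 3.74 and 0.90, and the list median was 0.24. Camk2a, a subunit of calcium/calmodulin-dependent kinase II, had 13.8, 51.8, 188 and 245 FPKM in siCtrl and 3.44, 30.3, 71.4 and 91.9 FPKM in siKlf5 cells. The siKlf5 library was lower on 4 of 4 days, and the day 3 ratio was -1.41 on the log2 scale (95% interval -1.73 to -1.11). This was the lowest adjusted p of the 6 lists (mean log2 difference -1.39, limma adjusted p = 0.115), and it did not pass. Camk2b (log2 ratio -2.79, 163 and 20 reads) and Mapk11 (-0.94) were also past 1.5-fold lower on day 3, none was higher, and the list median was -0.04. Camk2b had the opposite sign on the first days, with log2 ratios of 1.94 on day 0 and 2.39 on day 1 (6 and 23, then 4 and 24 reads, both counting intervals including 0), and its mean difference over days was 0.00. Rcan1, an inhibitor and target of calcineurin, was at a lower level in siKlf5 cells on 4 of 4 days, with 123 against 89.1 FPKM on day 3 (mean log2 difference -0.54, limma adjusted p = 0.178).

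**Figure D4:**
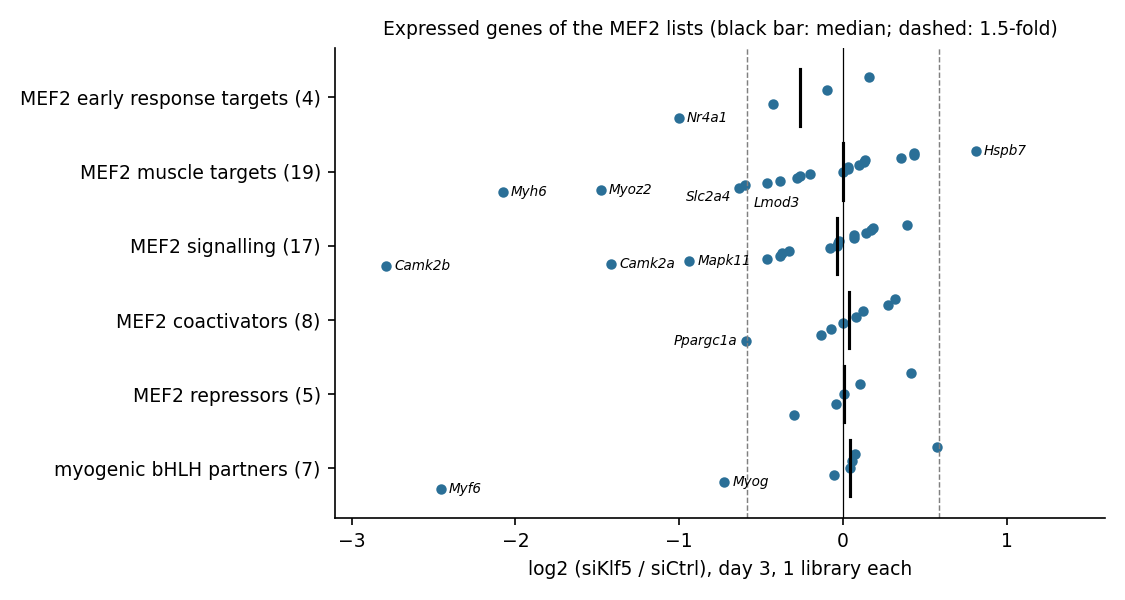
The log2 ratio of siKlf5 to siCtrl on day 3 (x axis) for the expressed genes of the 6 lists (y axis, number expressed in brackets), 1 library per siRNA. Points are genes, black bars list medians and dashed lines 1.5-fold, and genes past it are named. Medians lie between -0.26 and 0.04, with Camk2b, Myf6 and Myh6 farthest to the lower side.

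The 20 muscle genes known as MEF2 targets were the list that changed most over time. Between days 0 and 3, 18 rose, Xirp2 did not pass (log2 change -0.40) and Meg3 was below a mean of 1 FPKM and was not tested. The median over the 19 tested was 4.30, or 4.16 with zeros of Slc2a4 and Myoz2 set to that limit of 18 reads, against -0.09 for all transcripts. Ckm, the muscle creatine kinase, was 21.0, 693, 768 and 1094 FPKM in siCtrl and 19.9, 640.4, 1004 and 1096 FPKM in siKlf5 cells, and the siRNAs were nearly level on days 0 and 3. On day 2, when the siCtrl library was the deepest, its log2 ratio was 0.39. The list median was then 0.11, with 8 of 19 genes below 0. Keeping at most 3 reads per position can hold down short, abundant transcripts such as Ckm, more so in deep libraries, which was not tested. Between the siRNAs on day 3, Myh6 (log2 ratio -2.08), Myoz2 (-1.48), Slc2a4 (-0.63) and Lmod3 (-0.60) were lower and Hspb7 (0.81) higher by more than 1.5-fold, and the list median was 0.00. Myoz2, encoding the Z-disc protein calsarcin-1, had 7.99, 71.5, 376 and 412 FPKM in siCtrl and 0, 67.4, 166 and 148 FPKM in siKlf5 cells. Its courses lay close on day 1 and apart on days 2 and 3. Hspb7, a small heat shock protein of muscle, was higher in siKlf5 cells on 4 of 4 days, with 5.52, 38.7, 71.4 and 144 FPKM in siCtrl and 20.4, 58.9, 148 and 253 FPKM in siKlf5 cells. Lmod3, which nucleates thin filaments, had 833 and 551 FPKM on day 3. Slc2a4 rests on 50 and 28 reads there (95% interval -2.65 to 1.16), and Myh6 shares near-identical sequence with Myh7, between which reads could be split. On day 1 Slc2a4 had the opposite sign (log2 ratio 3.13, 1 and 12 reads, counting interval including 0). Its mean log2 difference over days was 0.21.

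Of 4 early response targets, Egr1 (log2 change 1.54) and Nr4a1 (1.12) rose between days 0 and 3, and Jun and Klf2 did not pass (list median 0.54). Nr4a1, an orphan nuclear receptor, was 41.6, 37.3, 91.8 and 102 FPKM in siCtrl and 26.5, 35.3, 48.2 and 50.9 FPKM in siKlf5 cells. It alone of the 4 passed 1.5-fold between the siRNAs on day 3 (log2 ratio -1.0, 95% interval -1.60 to -0.43), and the list median was -0.26. Egr1 was past 1.5-fold higher in siKlf5 cells on day 1, at 517 against 236 FPKM.

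MEF2 sites at the starts of 5 target genes are shown as examples of targets whose 300-base window held one. A site was found in 4 of the 17 muscle targets that have a window, or 23.5%, and 2 of 3 early response targets, against 3.70% of 27025 genes. Each line gives 30 bases of RefSeq sequence on GRCm38.p6, with the site in capitals.
Jun (chr4:95052236-95052265, minus strand): acatcatgggCTATTTTTAGggattgactg
Klf2 (chr8:72318934-72318963, plus strand): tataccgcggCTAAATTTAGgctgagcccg
Pgam2 (chr11:5803857-5803886, minus strand): ttttgtgagaCTATTTTTAAgttcagctcc
Srpk3 (chrX:73774328-73774357, plus strand): agctgggaggCTATTTATAAaggcgagtga
Xirp2 (chr2:67445918-67445947, plus strand): agctcagttcCTAAAAATAGgtgctaggtt
The Mef2a site shown in its promoter has the same 10 capitals as that of Xirp2. No match in a window says only that these letters are not in it.

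**Figure D5:**
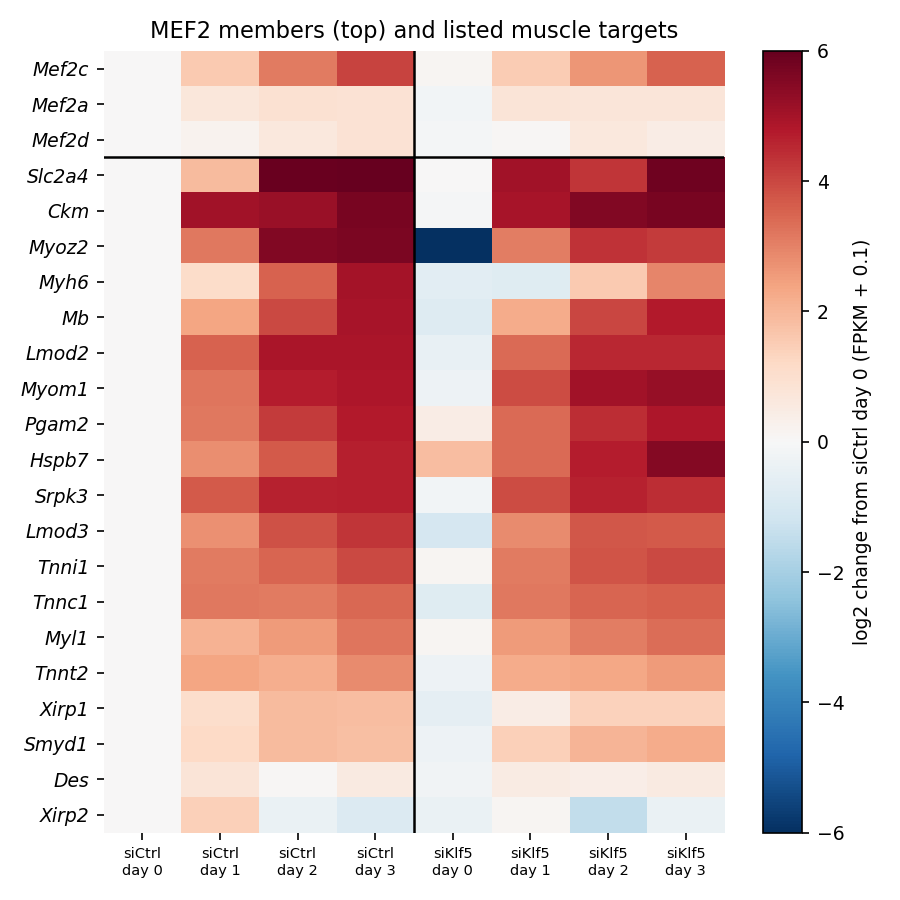
Heat map of 3 MEF2 members and the 19 expressed muscle targets (rows) in the 8 libraries (columns, siCtrl and siKlf5 on days 0 to 3), coloured by log2((FPKM + 0.1)/(siCtrl day 0 + 0.1)) up to 6 in either direction. Values of Slc2a4, at 0 in siCtrl cells on day 0, and of Myoz2, at 0 in siKlf5 cells on day 0, depend on the pseudocount, and 18 of the muscle targets were called higher on day 3.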

How the data were processed

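C2C12 RNA was measured in 8 libraries, 1 per siRNA and day. The authors aligned paired-end poly(A) reads to mm9 with STAR and counted exonic reads of both strands with HOMER, keeping at most 3 reads per position and 1 transcript per gene. The authors deposited FPKM values scaled to a total of 10000000. Also deposited were 8 columns on a log2 scale, 1 without a day in its name, which were not used. The study states that counts were normalized with DESeq2, and those were not used here. Because strand was ignored, antisense genes can share reads. The limit of 3 reads per position can lower the values of short, abundant transcripts, more so in deeper libraries. Its part in the folds and ratios given here was not tested.

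Whole reads were recovered from FPKM and length, with 100% of them (6153 to 8230 per library tried) falling at most 0.1 from an integer. Exactly 6 reads were much more frequent than exactly 5 (471 and 64 transcripts in siCtrl, day 3), so that 95% exact intervals (Clopper-Pearson for ratios, Poisson for levels) used reads divided by 6. They cover counting error only. Tests ran on log2(FPKM + 0.1) of 14312 transcripts, those averaging at least 1 FPKM. Limma with a mean-variance trend and Benjamini-Hochberg adjustment (threshold 0.05) fitted day as a factor plus siRNA (3 residual degrees of freedom), or siRNA by linear day (4). On simulated data for siKlf5 against siCtrl over days, it called 49 of 100 transcripts changed by a log2 value of 1. Of 100 changed by 2 it called 72, and it made 3 false calls among the unchanged rest of the 14312. A fold on this scale understates the change of low genes.

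The members and lists were chosen with earlier results of these data known. The genes named are the members, Klf5, Srf, those of the lists and markers, and the 5 transcripts most like each member by Pearson's r. Myh4, 2310045N01Rik and Myh7 are named outside this rule, Myh4 after its values were seen. Alternatives were other pseudocounts, filters, scalings and cutoffs, limma without the trend or the day block, and leaving out each day. The slope fit with day as a factor was added after seeing the data. Promoter windows are RefSeq sequences, and 1 of the matches is not reported here. The software was R 4.3.3 with limma 3.58.1, and Python 3.11.15 with scipy 1.17.1, numpy 2.4.6, matplotlib 3.10.9 and pandas 2.3.3.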

Additional observations from a re-analysis of the deposited data

Results flagged for a closer look

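Mef2a had a log2 ratio of siKlf5 to siCtrl of 0.0729 on day 1, whereas it was below 0 on days 0, 2 and 3. Mef2c had a log2 ratio of 0.10 on day 0, whereas it was below 0 on days 1, 2 and 3. Each was noted because 1 day lay on the opposite side of 0 from the other 3. The differences between single days were not tested, since each day has 1 library per siRNA, and the counting intervals of both values include 0.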

How the results depend on the processing

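Of the alternatives for summary values and members, 249 kept their direction and were the same by the rule for their kind. Tested changes had to stay on their side of the adjusted p threshold, single-day ratios within their counting interval, and counts within 1.5 times. The 249 include the single-day ratios with intervals from single reads, whose value could not change. Of the rest, 5 lost a call, 3 tested values and 2 single-day ratios changed sign, and 23 counts moved by more than 1.5 times. Both ratios that changed sign were of Mef2d on day 2, at -0.01 as deposited, 0.03 with median-ratio and 0.05 with upper-quartile scaling. Mef2c on day 3 stayed between -0.53 and -0.49 (log2 ratio), on day 2 between -0.49 and -0.43, and Mef2d on day 3 between -0.42 and -0.38. Over days the siKlf5 difference of Mef2c ranged from -0.36 to -0.15 (limma adjusted p 0.608 to 1), that of Mef2d from -0.22 to -0.08 and that of Mef2a from -0.17 to -0.08, and no alternative called a member. Without the trend Mef2a on day 1 (0.80, adjusted p = 0.0533) and Mef2d on day 2 (0.66, adjusted p = 0.0690) lost their calls, and with no filter so did Mef2c on day 1 (1.48, adjusted p = 0.0663) and Mef2d on day 2 (0.66, adjusted p = 0.0802) and day 3 (0.70, adjusted p = 0.0562). The uncalled slope differences changed sign for Mef2a (0.0080 with upper-quartile scaling and -0.10 to 0.0087 with a day left out, positive without day 1), Mef2d (-0.14 to 0.0414 with a day left out, positive without day 3) and Klf5 (-0.44 to 0.50, negative without day 0). With no filter, without the trend and with a day left out, the transcripts called numbered 653, 667 and 1001 to 1176 on day 1, against 2397, then 1206, 1374 and 2008 to 3107 on day 2, against 3307, and 2161, 2593 and 3119 to 4217 on day 3, against 4347. For siKlf5 over days these counts were 0, 0 and 0 to 0, and 1 without the day block, against 9. For the slope, 1 was called with no filter, against 0. On day 3, 1796 transcripts were lower and 1532 higher past 1.5-fold, which became 1069 and 893 past 2-fold, 2849 and 2573 with no filter and 1128 and 933 with a mean of at least 5. The causes were not tested, except that a stricter cutoff or filter leaves fewer transcripts to pass a fold. For the limma calls against day 0, the filter at a mean of at least 5 gave more, at 2552, 3419 and 4407 on days 1 to 3. Single-day ratios are limited by depth and by variation between cultures, which was not measured.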

Other observations

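Srf, the other MADS-box factor of muscle, served as a comparison within the wider protein family. Its FPKM was 153, 198, 193 and 162 in siCtrl and 145, 259, 224 and 174 in siKlf5 cells on days 0 to 3. Over both siRNAs it rose against day 0 on day 1 (log2 change 0.61, limma adjusted p = 0.0223) and day 2 (0.48, adjusted p = 0.0389), and the change on day 3 did not pass (0.18, adjusted p = 0.381). Its log2 ratio of siKlf5 to siCtrl was -0.08, 0.39, 0.21 and 0.11 on days 0 to 3.

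Set across days, the siKlf5 library of day 3 was compared with the siCtrl library of day 2. Mef2c was higher in the former by a log2 value of 0.42 (95% interval 0.23 to 0.60), whereas Mef2a was -0.19 (-0.34 to -0.04) and Mef2d -0.18 (-0.38 to 0.01) on the same scale. These values compare 1 library with 1 library, and the intervals cover counting error only.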
